A study of Homo sapiens with 24 samples.

Results

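The S100 proteins form a family of small calcium-binding proteins, and 10 of its genes were selected by gene symbol in a table of raw counts for 58721 genes: S100A2, S100A4, S100A6, S100A8, S100A9, S100A10, S100A11, S100A14, S100A16 and S100P. Each symbol matched 1 gene, and all 10 genes passed the filter on low counts in every fit. RNA was sequenced from RT112 and SCaBER, established human bladder cancer lines that the study uses as a luminal and a basal/squamous model, after transfection of small interfering RNAs (siRNAs) against the transcription factors FOXA1 and ZBED2. Each line had 6 groups of 2 libraries, 24 libraries in all. The groups received the control siRNA (siControl), 1 of 2 siRNAs against ZBED2 (siZBED2-1 or siZBED2-2), 1 siRNA against FOXA1 (siFOXA1), or the FOXA1 siRNA together with 1 of the ZBED2 siRNAs (siFOXA1+siZBED2-1 and siFOXA1+siZBED2-2). Every FOXA1 knockdown used the 1 labelled siRNA, the siControl is labelled number 2, and the labels name no other agent or genetic change in any group.

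An S100 protein folds around a pair of EF-hands, loops that hold calcium, and most members work as dimers that expose a binding surface for partner proteins once calcium is bound. Inside cells they bind annexins and cytoskeletal proteins, and some members are released and signal through the receptors AGER and TLR4. S100A8 and S100A9 form calprotectin, an antimicrobial complex abundant in neutrophils and in inflamed squamous epithelium, while S100P, first found in placenta, is a common marker of urothelial cells. In the urothelium S100 genes mark both differentiation and inflammation, and most of them lie in the epidermal differentiation complex on chromosome 1.

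By the RefSeq annotation of GRCh38.p14, 9 of the members lay on chromosome 1 within 1633.4 kb and S100P lay alone on chromosome 4 (chr4:6693878-6697170, plus strand). S100A10 (chr1:151982915-151993859) and S100A11 (chr1:152032506-152037004) stood at one end of the group, both on the minus strand. S100A9 (chr1:153357854-153361023, plus strand) and S100A8 (chr1:153390032-153422583, minus strand) were next to each other among the members. S100A6 (chr1:153534599-153535991), S100A4 (chr1:153543621-153545806), S100A2 (chr1:153561108-153565844), S100A16 (chr1:153606883-153613137) and S100A14 (chr1:153614255-153616325) followed one another on the minus strand. Overlap of the members with S100 genes outside the list was not examined, and a split of reads between overlapping genes by the counting was not tested. S100A7A, one of those other genes, had no count in any library.

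The 250 bases before the annotated start are shown for S100P, the member that changed most under siFOXA1 in RT112, for S100A9 and S100A16, which changed under it in both lines, and for S100A8 and S100A2, which rose with S100A9 and S100A14 under siZBED2-1 in SCaBER. Capitals mark the letters TATAAA on the strand of the gene, or TGANTCA, the core letters bound by AP-1 factors. Where RefSeq gives several starts, the upstream stretch of 1 start is printed, for S100A2 and S100A8 a start with a match. The other S100A2 stretch (chr1:153563888-153564137) held no TGANTCA, and a further S100A8 stretch (chr1:153391189-153391438) held no TATAAA. The stretches lie at chr4:6693628-6693877 (S100P, plus strand), chr1:153357604-153357853 (S100A9, plus), chr1:153391074-153391323 (S100A8, minus), chr1:153565845-153566094 (S100A2, minus) and chr1:153613138-153613387 (S100A16, minus), and each is written 5′ to 3′ along its gene.
S100P: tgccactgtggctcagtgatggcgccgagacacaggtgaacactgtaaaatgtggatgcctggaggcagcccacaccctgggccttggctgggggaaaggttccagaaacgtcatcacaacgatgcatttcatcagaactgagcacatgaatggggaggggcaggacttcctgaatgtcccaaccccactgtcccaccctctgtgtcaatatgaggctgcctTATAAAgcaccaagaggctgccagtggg
S100A9: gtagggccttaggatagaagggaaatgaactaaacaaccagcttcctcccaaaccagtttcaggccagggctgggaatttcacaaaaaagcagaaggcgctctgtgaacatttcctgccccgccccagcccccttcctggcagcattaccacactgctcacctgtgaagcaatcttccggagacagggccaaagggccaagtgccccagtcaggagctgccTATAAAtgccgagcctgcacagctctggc
S100A8: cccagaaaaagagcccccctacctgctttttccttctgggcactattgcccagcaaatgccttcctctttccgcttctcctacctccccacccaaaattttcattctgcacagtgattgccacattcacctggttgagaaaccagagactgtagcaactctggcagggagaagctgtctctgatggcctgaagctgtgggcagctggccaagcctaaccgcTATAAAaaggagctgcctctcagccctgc
S100A2: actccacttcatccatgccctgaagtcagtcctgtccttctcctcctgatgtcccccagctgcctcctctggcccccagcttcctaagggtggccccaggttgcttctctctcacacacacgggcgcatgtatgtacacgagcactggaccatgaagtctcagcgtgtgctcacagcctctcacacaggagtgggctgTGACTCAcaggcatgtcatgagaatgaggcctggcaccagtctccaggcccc
S100A16: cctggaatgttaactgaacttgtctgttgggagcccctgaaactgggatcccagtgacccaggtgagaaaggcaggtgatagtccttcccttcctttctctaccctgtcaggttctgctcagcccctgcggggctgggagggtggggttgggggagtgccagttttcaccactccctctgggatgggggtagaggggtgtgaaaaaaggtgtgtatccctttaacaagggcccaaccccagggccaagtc
TATAAA stood upstream of 4 of the 10 members, 28 bases before the start in S100P, 29 in S100A8 and S100A9, and 31 in S100A4, against 6.8% of the 35116 promoters in the RefSeq table. TGANTCA, searched on both strands, matched upstream of S100A2 alone, as TGACTCA 52 bases before the start, against 6.57% of all promoters. The forkhead letters TGTTTAC and TATTTAC, bound by factors of the FOXA1 class, were searched on both strands and matched upstream of 0 members in this window, against 5.27% of all promoters. GAAA repeated after a gap of 2 bases, as in interferon response elements (3.02% of all promoters), and GGG followed after 2 bases by TTTCC, as in NF-kB sites (1.73%), matched no member on either strand, and TTGCNNAA (9.05%) matched upstream of S100A11 only. A member was counted if any of its annotated starts matched, 14 starts in all, while the shares are per promoter. A count of 0 among 10 members cannot be told apart from shares of this size. These matches describe letters in a short window, and binding was not measured in these libraries.

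Library totals were 4425404 to 5207195 counts in RT112 and 4519668 to 6119210 in SCaBER, and the libraries were made with a protocol that reads the 3′ end of each mRNA. Levels are given in CPM, counts scaled to a fixed total per library and by its TMM factor. The limit set by 3 counts, on the totals without that factor, lay at 0.490 to 0.678 CPM. FOXA1 had 192 and 225 counts under siControl and 34 and 44 under siFOXA1 in RT112, a change of −2.36 on the log2 scale (SE 0.38, adjusted p = 5.68e-05). In SCaBER FOXA1 was low already under siControl, with 20 and 28 counts (mean 4.62 CPM) against 4 and 6 under siFOXA1 (adjusted p = 0.272). It had 14 and 1 counts under siZBED2-1 and 25 and 20 under siZBED2-2. With the FOXA1 siRNA added it had 0 and 1 and 3 and 2. Between all SCaBER libraries with the FOXA1 siRNA and all without it, edgeR called 1 of the 2 siRNA targets, FOXA1 and ZBED2, lower. ZBED2 in RT112 had 101 and 92 counts under siControl, 12 and 0 under siZBED2-1 (adjusted p = 0.00624), and 38 and 36 under siZBED2-2 (adjusted p = 0.903). In SCaBER it had 101 and 96, 12 and 40 (adjusted p = 0.00848), and 48 and 100 (adjusted p = 0.844), the 100 counts in the library with the largest total, and the groups' mean levels were 18.9 and 12.3 CPM for siControl and siZBED2-2. ZBED2 was also lower under siFOXA1 in RT112, at 27 and 7 counts (adjusted p = 0.0325). The luminal markers fixed for the check summed to 2883 to 5140 CPM in RT112 libraries and 903 to 1414 in SCaBER, and the basal markers to 933 to 1612 and 3769 to 6833. The luminal sum was thus higher in RT112 and the basal sum in SCaBER. Under siControl all 10 luminal markers tested were called higher in RT112. Of 12 basal markers 9 were called lower there and 1 higher. Libraries were labelled by experiment batch, separate cultures were not stated, and p-values then measure only the spread between these samples. In bulk RNA fewer cells of a type and less RNA per cell cannot be told apart.

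The 10 members together took 0.531 to 0.991% of the counts of an RT112 library and 0.429 to 0.589% of a SCaBER library. Compared per transcript length, as the authors' TPM values (counts divided by transcript length and scaled to a fixed total), S100A6 was the highest member under siControl in RT112, at 7018 and 9779 TPM, followed by S100P at 2363 and 3369, S100A11 at 2108 and 2753, and S100A9 at 1731 and 1579. S100P and S100A11 overlapped between libraries, and S100A11 did not overlap S100A9. S100A10 (mean 886 TPM), S100A14 (791), S100A4 (627), S100A2 (441) and S100A16 (404) followed, and neighbours in that order overlapped between libraries. S100A8 was the lowest, at 63.2 and 38.4 TPM.

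In SCaBER the order was different. S100A11 stood at 2865 and 2864 TPM, S100A6 at 2267 and 2831, and S100A2 at 1841 and 2073, the first not overlapping the second. S100A10 followed at 1255 and 1467, and S100A9 (759 and 545) and S100A16 (689 and 604) overlapped. S100A14 stood at 264 and 235, S100A4 at 43.9 and 25.4, S100A8 at 33.8 and 34.4 and S100P at 1.17 and 7.84 TPM, the S100A4 and S100A8 libraries overlapping. A protocol that reads 3′ ends yields reads in proportion to transcripts rather than to their length, so division by length can misorder genes. By mean CPM S100A2 was the highest member in SCaBER (1176 CPM), and S100A9 (437 CPM) stood below S100A10 (617) and S100A14 (455) in RT112. The S100A9 libraries (493 and 381 CPM) overlapped those of S100A14 (416 and 494). In SCaBER the S100A2 libraries (1077.81 and 1274 CPM) just overlapped those of S100A6 (822 and 1077.95).

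**Figure D1:**
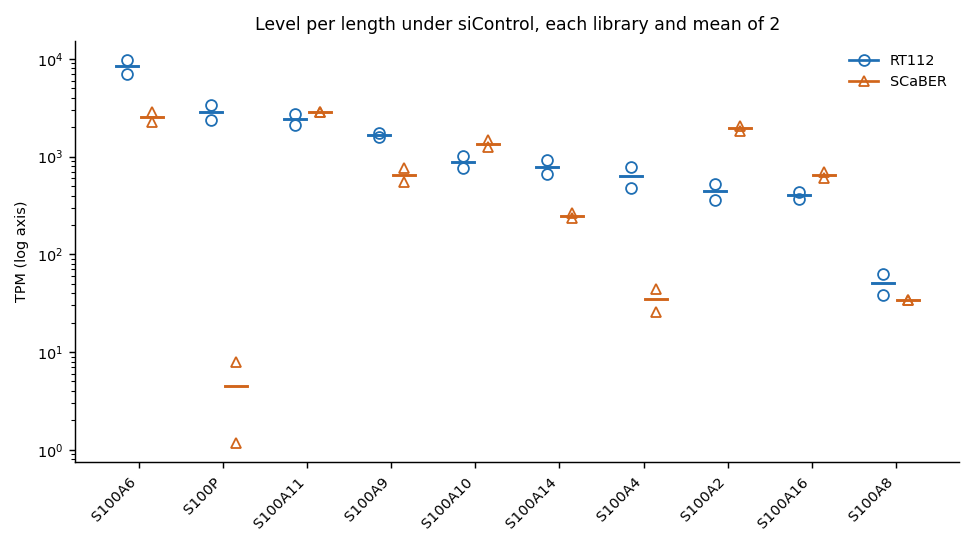
TPM (log axis) of the 10 members in the siControl libraries, in the order of their mean in RT112, with 2 points per line for the 2 libraries. S100P stood at 2363 and 3369 TPM in RT112 and at 1.17 and 7.84 TPM in SCaBER, and S100A11 ran from 2108 to 2865 TPM over the 4 libraries.

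The question of how the luminal line differed from the basal line was put to the siControl libraries in 1 fit of all 24 libraries. Of the 10 members 8 were called at an adjusted p under 0.05, which the text calls a change, 5 higher in RT112 and 3 lower, against 33.6% of 14823 genes called, 16.4% higher and 17.2% lower. On log2(TPM + 1) values 8 members were called as well, while the split of all genes went from 2438 higher and 2543 lower to 1714 and 3287. S100P, with 6848 and 9824 counts in RT112, had 3 and 20 in SCaBER, and S100A4, a partner of the cytoskeleton and of liprins linked to cell motility, had 241 and 334 CPM against 16.8 and 10.2. The fitted log2 differences were 9.53 (SE 0.33, adjusted p = 2.3e-21) for S100P and 4.41 (SE 0.27, adjusted p = 6.8e-15) for S100A4. The first rests on few counts in SCaBER, and its size carries their counting error.

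S100A6, or calcyclin, was higher in RT112 by a log2 difference of 1.95 (3364 and 3977 CPM against 822 and 1078, SE 0.13, adjusted p = 5.1e-14). S100A14 followed at 1.90 (416 and 494 against 126 and 118, SE 0.13, adjusted p = 9.21e-14), and S100A9 at 1.61 (493 and 381 against 164 and 123, SE 0.24, adjusted p = 2.38e-06). S100A2, a squamous and basal cell marker of the family, was lower in RT112, at 277 and 343 CPM against 1078 and 1274, with a log2 difference of −1.92 (SE 0.13, adjusted p = 5.99e-14). S100A16 at −0.43 (adjusted p = 0.0125) and S100A10 at −0.39 (adjusted p = 0.0245) were also lower, but the S100A16 call was lost without either RT112 siControl library or the first SCaBER siControl library, and the S100A10 call was lost without the first RT112 or the second SCaBER siControl library. S100A11 had 708 and 784 CPM in RT112 and 728 and 764 in SCaBER, with an approximate 95% interval (1.96 SE on each side) of −0.22 to 0.22 for the log2 difference. S100A8 was at 0.85 (adjusted p = 0.101).

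Under siFOXA1 in RT112, S100P fell from 1493 and 1806 CPM to 403 and 343, S100A2, S100A10, S100A4 and S100A6 fell, and S100A9 and S100A16 rose. The test called 7 of the 10 members, 2 higher and 5 lower, where 23.3% of the 13264 genes tested were called, 11.3% higher and 11.9% lower. The libraries of 8 members did not overlap between the groups, against 61.2% of all genes. The median log2 fold change of the members was −0.38 and that of all genes was −0.01. Their share of a library's counts was 0.877% under siControl and 0.564% under siFOXA1.

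S100P carried the largest change, a change of −2.16 on the log2 scale (SE 0.13, adjusted p = 7.52e-12), a fall of 4.46-fold. The fall was in both experiment batches, −1.89 in batch 1 and −2.40 in batch 2. S100A2 fell from 277 and 343 CPM to 176 and 158 (−0.91, SE 0.15, adjusted p = 6.49e-05). S100A10, the partner of annexin A2, fell from 581 and 652 to 369 and 307 (−0.88, SE 0.13, adjusted p = 2.02e-05). S100A4 fell from 241 and 334 to 177 and 145 (−0.85, SE 0.16, adjusted p = 0.000292), and S100A6, the most abundant member, from 3364 and 3977 to 2362 and 2111 (−0.73, SE 0.12, adjusted p = 5.51e-05). For each of these 5 genes both siFOXA1 libraries were below both siControl libraries.

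S100A9 went the other way in RT112, from 493 and 381 CPM to 1031 and 767 (log2 fold change 1.03, SE 0.24, adjusted p = 0.00223), with both treated libraries above both controls. Its partner S100A8 had 31.4 and 16.2 CPM against 46.2 and 45.4, a log2 fold change of 0.94 that missed the threshold (SE 0.36, adjusted p = 0.0572). With the experiment batch as a block in the fit, S100A8 was called at 1.02 (SE 0.26, adjusted p = 0.00278). Of the 10 myeloid markers, which neutrophils and monocytes bring with S100A8 and S100A9, FCGR3B, FCN1, LYZ, ITGAM and MPO had no count in RT112, and the 10 summed to 0 to 2.57 CPM over its libraries, with 2 to 8 counts per library under siControl and 1 to 3 under siFOXA1. In SCaBER CSF3R, FCGR3B, FCN1, LYZ and MPO had no count and the sum ran from 2.36 to 6.56 CPM, with 12 to 21 counts per library under siControl, 26 to 31 under siFOXA1 and 27 to 32 under siZBED2-1. The part of such cells in the S100A8 and S100A9 values was not tested. S100A16, a widely expressed member of little-known function, rose from 310 and 313 CPM to 468 and 503 (0.63, SE 0.13, adjusted p = 0.00103). On log2(TPM + 1) values by limma the calls of S100A9 (adjusted p = 0.127) and S100A16 (adjusted p = 0.205) were lost, and that scaling moved the median of all genes in this comparison to −0.26, with 391 genes called higher and 1748 lower in place of 1499 and 1585.

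S100A11 had 708 and 784 CPM against 709 and 769, with an approximate 95% interval of −0.26 to 0.20 for the log2 fold change. S100A14, a regulator of cell adhesion and motility, had 416 and 494 against 443 and 484, with an interval of −0.24 to 0.27. These intervals leave out changes of the size seen in S100A6 or S100A10.

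In SCaBER siFOXA1 changed 2 members, against 17.8% of the 13129 genes tested, and 6 members had libraries that did not overlap, against 55.4% of all genes. S100A9 fell, from 164 and 123 CPM to 70.7 and 52.0 (log2 fold change −1.24, SE 0.18, adjusted p = 4.56e-06), a fall of 2.36-fold. S100A16 rose, from 438 and 403 to 812 and 736 (0.86, SE 0.13, adjusted p = 3.85e-06), so that it was called higher in both lines. With the experiment batch as a block, S100A11 (0.29, SE 0.096, adjusted p = 0.0249) and S100A2 (0.23, SE 0.086, adjusted p = 0.0496) were called too.

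None of the other 8 was called, with log2 fold changes from −0.92 to 0.29. S100A2 (adjusted p = 0.147) had 1078 and 1274 CPM against 1436 and 1345, and S100A11 (adjusted p = 0.0588) had 728 and 764 against 966 and 880, both with the treated libraries above the controls. S100P had 3 and 20 counts against 5 and 6, at or near the limit, with an approximate 95% interval of −3.37 to 1.52, so a fall of the size seen in RT112 was not detectable at this depth. The interval of S100A6 was −0.29 to 0.17 and that of S100A10 −0.39 to 0.10.

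**Figure D2:**
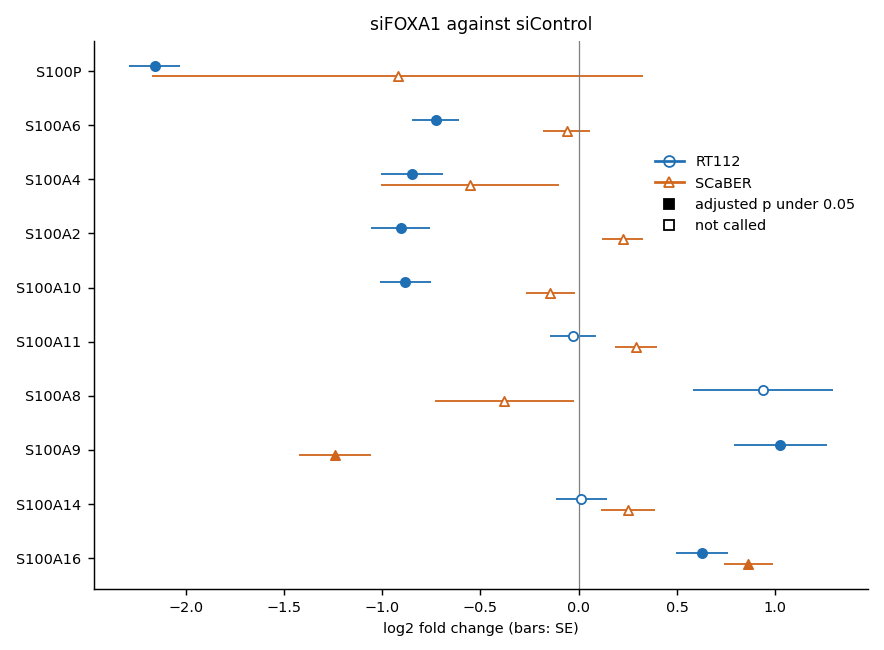
Log2 fold change under siFOXA1 against siControl for the 10 members, with bars of 1 SE, RT112 and SCaBER side by side, and filled symbols where the adjusted p was under 0.05. S100P stood at −2.16 in RT112, S100A9 at 1.03 in RT112 and −1.24 in SCaBER, and S100A16 above 0 in both lines.

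The difference of the siFOXA1 change between the lines was tested directly in 1 fit, and 4 of the 10 members were called, against 2.58% of 14823 genes. S100A9 had the largest, a difference of 2.26 (SE 0.35, adjusted p = 0.000122), RT112 minus SCaBER on the log2 scale. S100A2 differed by −1.13 (SE 0.18, adjusted p = 0.000178), S100A10 by −0.74 (SE 0.19, adjusted p = 0.0251) and S100A6 by −0.67 (SE 0.18, adjusted p = 0.0316). The S100A10 and S100A6 calls were each lost on leaving out any 1 of 4 libraries, the first SCaBER siControl, the second SCaBER siFOXA1, the second RT112 siControl and the second RT112 siFOXA1. For S100A16 the difference was −0.24, with an approximate 95% interval of −0.61 to 0.14, and for S100P it was −1.26 (adjusted p = 0.46) with few counts in SCaBER. Without the second SCaBER siControl library the S100P difference was −3.19 (adjusted p = 0.0407).

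The ZBED2 siRNAs were each compared with the same siControl libraries that served siFOXA1, so these comparisons share their control samples. In RT112 each siRNA changed 1 member, S100P, against 8.8% of genes for siZBED2-1 and 0.166% for siZBED2-2. S100P rose from 1493 and 1806 CPM to 2096 and 2235 under siZBED2-1 (0.39, SE 0.12, adjusted p = 0.0488) and to 2758 and 2420 under siZBED2-2 (0.64, SE 0.12, adjusted p = 0.0162). In both cases the treated libraries lay above both controls. The groups did not overlap for 52.8% of all genes under siZBED2-1 and for 35.6% under siZBED2-2. The siZBED2-1 call was lost without the first siControl library (log2 fold change 0.26) and without either siZBED2-1 library (0.43 and 0.33). The siZBED2-2 call was lost without the first siControl library (0.52) or the first siZBED2-2 library (0.54). With the block, siZBED2-1 changed 4 members, adding S100A8 (0.96, adjusted p = 0.00972), S100A9 (0.45, adjusted p = 0.0291) and S100A4 (−0.45, adjusted p = 0.0431), and siZBED2-2 changed 2, adding S100A4 (−0.66, adjusted p = 0.0308). Of the 10 luminal markers tested in RT112, edgeR called 4 higher and 0 lower under siZBED2-1, with a median of 0.34, and 0 under siZBED2-2.

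The S100A8 values of RT112 were 64.1 and 29.4 CPM under siZBED2-1 and 70.6 and 29.9 under siZBED2-2, against 31.4 and 16.2, so the groups overlapped while each batch gave a higher value. S100A4 stood at 206 and 215 CPM and at 190 and 175, below both controls at 241 and 334. Compared with each other, siZBED2-1 gave more S100A2 than siZBED2-2, 331 and 309 CPM against 221 and 212 (0.57, SE 0.15, adjusted p = 0.0155), the only call there, against 7.77% of all genes. That call was lost on leaving out any of the 4 libraries, and with the block S100A10 was called besides (0.39, adjusted p = 0.0341).

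In SCaBER siZBED2-1 raised 4 members and lowered 0, against 4.65% of all genes called and 2.19% called higher. S100A8 rose most, from 12.7 and 13.6 CPM to 69.0 and 51.3 (2.17, SE 0.33, adjusted p = 3.87e-05), and S100A9 rose from 164 and 123 to 263 and 287 (0.91, SE 0.17, adjusted p = 0.000816). S100A2 rose from 1078 and 1274 to 1739 and 1991 (0.64, SE 0.10, adjusted p = 0.000108), and S100A14 from 126 and 118 to 183 and 186 (0.57, SE 0.14, adjusted p = 0.00823). All 4 had both treated libraries above both controls, where 47% of all genes did not overlap between the groups. The S100A14 call was lost without the second siControl or the second siZBED2-1 library. Beside them 6 of the 12 basal and squamous markers were called higher and 0 lower, with a median of 0.54 against −0.00 for all genes, and 0 of 8 luminal markers were called in either direction. The part of the basal change in the S100 values was not tested.

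Under siZBED2-2 edgeR called 0 members in SCaBER, against 0.625% of all genes, 1 member had an unadjusted p under 0.05, and DESeq2 called 0. That member was S100A8, at 24.2 and 25.7 CPM against 12.7 and 13.6 (0.93, unadjusted p = 0.00854, adjusted p = 0.357). ZBED2 itself was not called lower in that group. Against siZBED2-2, siZBED2-1 gave more of 3 members, where 4.01% of all genes were called and 1.61% were called higher, with S100A8 at 1.24 (SE 0.31, adjusted p = 0.0169), S100A9 at 0.75 (SE 0.17, adjusted p = 0.00735) and S100A2 at 0.46 (SE 0.10, adjusted p = 0.00638). Leaving out any 1 of these 4 libraries left 1 to 2 of the calls.

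**Figure D3:**
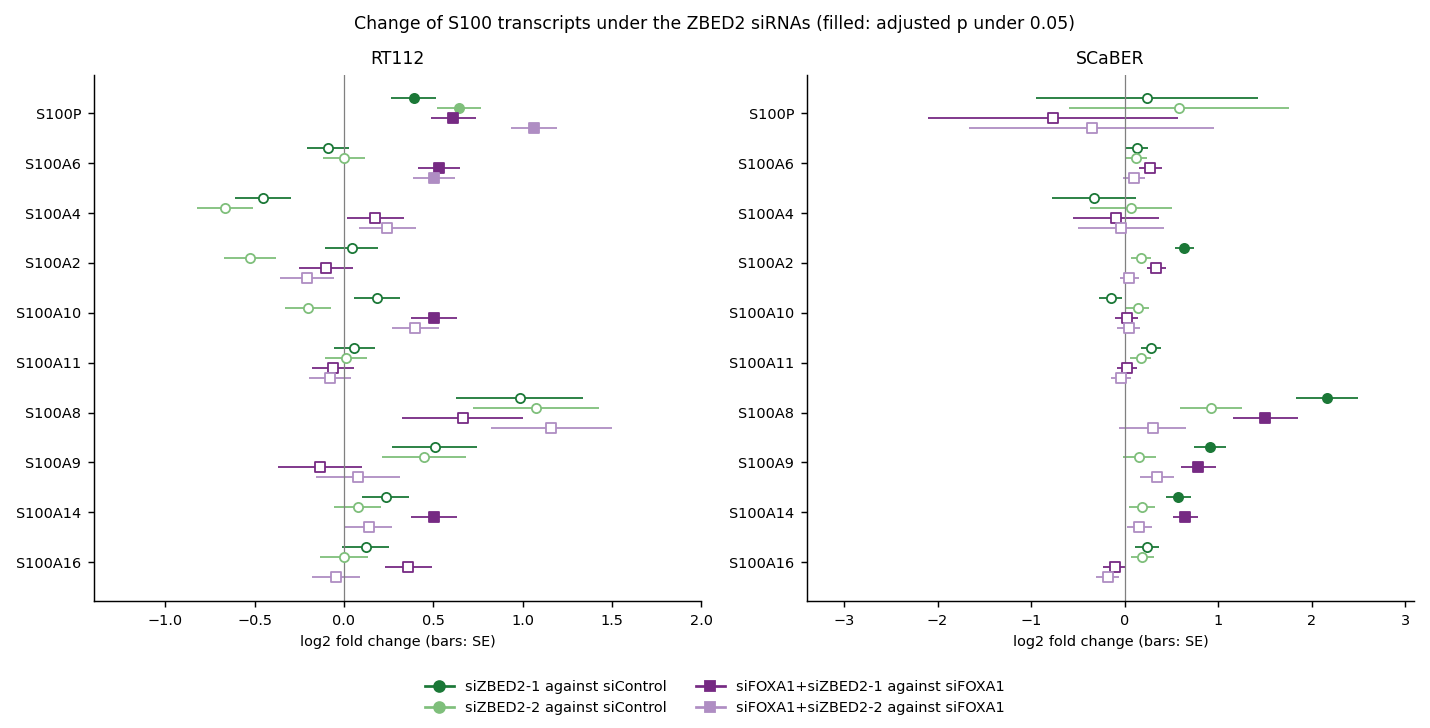
Log2 fold changes of the 10 members for the ZBED2 siRNAs, alone against siControl and with the FOXA1 siRNA against siFOXA1, 4 contrasts in each line, with bars of 1 SE and filled symbols where the adjusted p was under 0.05. S100A8 in SCaBER stood at 2.17 under siZBED2-1 and 0.93 under siZBED2-2.

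With the FOXA1 siRNA present, the ZBED2 siRNAs were compared with siFOXA1 alone, and both comparisons share its 2 libraries. In RT112 siFOXA1+siZBED2-1 had 4 members higher and 0 lower, against 2.55% of genes called and 1.55% higher. S100P rose from 403 and 343 CPM to 559 and 575 (0.61, SE 0.13, adjusted p = 0.00707), and S100A6 from 2362 and 2111 to 2906 and 3521 (0.53, SE 0.12, adjusted p = 0.012). S100A10 rose from 369 and 307 to 487 and 464 (0.50, SE 0.13, adjusted p = 0.034), and S100A14 from 443 and 484 to 620 and 686 (0.50, SE 0.13, adjusted p = 0.0339). The 4 calls were all lost without the second siFOXA1 library, and without the second siFOXA1+siZBED2-1 library 1 remained. Of 10 luminal markers 3 were called higher and 0 lower in this comparison, with a median of 0.49.

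With siFOXA1+siZBED2-2 in RT112 2 members were higher, against 1.25% of genes called and 0.897% higher. S100P rose to 740 and 819 CPM (1.06, SE 0.13, adjusted p = 6.91e-05) and S100A6 to 3068 and 3279 (0.50, SE 0.12, adjusted p = 0.0282). The S100A6 call was lost without the second siFOXA1 library (adjusted p = 0.346) and without either siFOXA1+siZBED2-2 library (adjusted p = 0.0596 and 0.173). Of 10 luminal markers 2 were called higher and 0 lower, with a median of 0.41. S100P thus rose with each ZBED2 siRNA on either background, while its level with siFOXA1 stayed under the siControl level in all 6 libraries that held the FOXA1 siRNA. S100A8 reached 118 and 87.2 CPM, above both siFOXA1 libraries, where 42.5% of all genes did not overlap. Its adjusted p was 0.0917, and with the block it was called (1.13, SE 0.24, adjusted p = 0.00624). ZBED2 had 27 and 7 counts under siFOXA1, 9 and 7 under siFOXA1+siZBED2-1 and 12 and 4 under siFOXA1+siZBED2-2. FOXA1 had 34 and 44, 19 and 56, and 71 and 47 counts in the same groups. Of these 2 targets edgeR called 0 in either comparison. The part of ZBED2 or FOXA1 levels in the S100 rises on the siFOXA1 background was not tested.

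In SCaBER siFOXA1+siZBED2-1 raised 3 members, against 2.73% of genes called and 1.35% higher. S100A8 rose from 9.61 and 10.8 CPM to 17.4 and 41.03 (1.51, SE 0.34, adjusted p = 0.00906), S100A9 from 70.7 and 52.0 to 90.7 and 122 (0.79, SE 0.18, adjusted p = 0.0107) and S100A14 from 146 and 146 to 219 and 242 (0.65, SE 0.14, adjusted p = 0.00386). The second siFOXA1+siZBED2-1 library was the higher in all 3, and without it edgeR called 0 of them. Of 12 basal and squamous markers 3 were called higher and 0 lower, with a median of 0.30. With the block S100A2 was called as well, from 1436 and 1345 CPM to 1663 and 1862 (0.33, SE 0.086, adjusted p = 0.0125). For siFOXA1+siZBED2-2 edgeR called 0 members, against 3.66% of all genes, 0 had an unadjusted p under 0.05, and DESeq2 called 0.

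Whether the ZBED2 siRNAs acted differently with and without the FOXA1 siRNA was tested as an interaction, taking the mean of both ZBED2 siRNAs. In RT112 edgeR called 0 members, against 0.611% of all genes, with 4 at an unadjusted p under 0.05 and 3 called by DESeq2. The largest were S100A4 (0.77, SE 0.19, adjusted p = 0.067) and S100A6 (0.56, SE 0.14, adjusted p = 0.0696), and with the block both were called, S100A4 at 0.76 (adjusted p = 0.0222) and S100A6 at 0.56 (adjusted p = 0.0204). In SCaBER edgeR called 0, against 2.29% of all genes, with 1 at an unadjusted p under 0.05, S100A16 at −0.36 (adjusted p = 0.274), and 0 called by DESeq2.

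All 6 libraries with the FOXA1 siRNA were then set against the 6 without it, which averages over the ZBED2 siRNAs. In RT112 8 members were called, 3 higher and 5 lower, against 33.8% of all genes, 16.7% higher and 17.0% lower. S100P ran from 1493 to 2758 CPM without the siRNA (median 2165) and from 343 to 819 with it (median 567), a change of −1.94 on the log2 scale (SE 0.074, adjusted p = 2.56e-16). S100A2 ran from 212 to 343 (median 293) and from 137 to 176 (median 155), a change of −0.85 (adjusted p = 2.32e-08), and S100A10 from 532 to 719 (median 617) and from 307 to 487 (median 437), a change of −0.58 (adjusted p = 1.29e-06). S100A16 ran from 281 to 365 (median 313) and from 458 to 640 (median 492), a change of 0.69 (adjusted p = 1.04e-07). These 4 did not overlap between the groups, against 10.8% of all genes.

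S100A9 (0.69, adjusted p = 0.000268), S100A8 (0.86, adjusted p = 0.0013), S100A6 (−0.35, adjusted p = 0.000195) and S100A4 (−0.34, adjusted p = 0.00542) were also called in RT112, with ranges that overlapped. In SCaBER 4 members were called, 2 higher and 2 lower, against 24.1% of all genes, 12.1% higher and 12.0% lower. S100A9 ran from 123 to 287 CPM without the siRNA (median 169) and from 52.0 to 122 with it (median 78.9), a change of −1.22 (SE 0.10, adjusted p = 4.22e-11). S100A16 ran from 398 to 560 (median 466) and from 629 to 812 (median 728), a change of 0.62 (SE 0.072, adjusted p = 3.77e-08). These 2 did not overlap, against 6.76% of all genes. S100A8 fell by 0.81 (adjusted p = 0.00186) and S100A14 rose by 0.26 (adjusted p = 0.0123), both with overlapping ranges, and the S100A14 call was lost without the second siFOXA1+siZBED2-1 library (adjusted p = 0.0648).

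**Figure D4:**
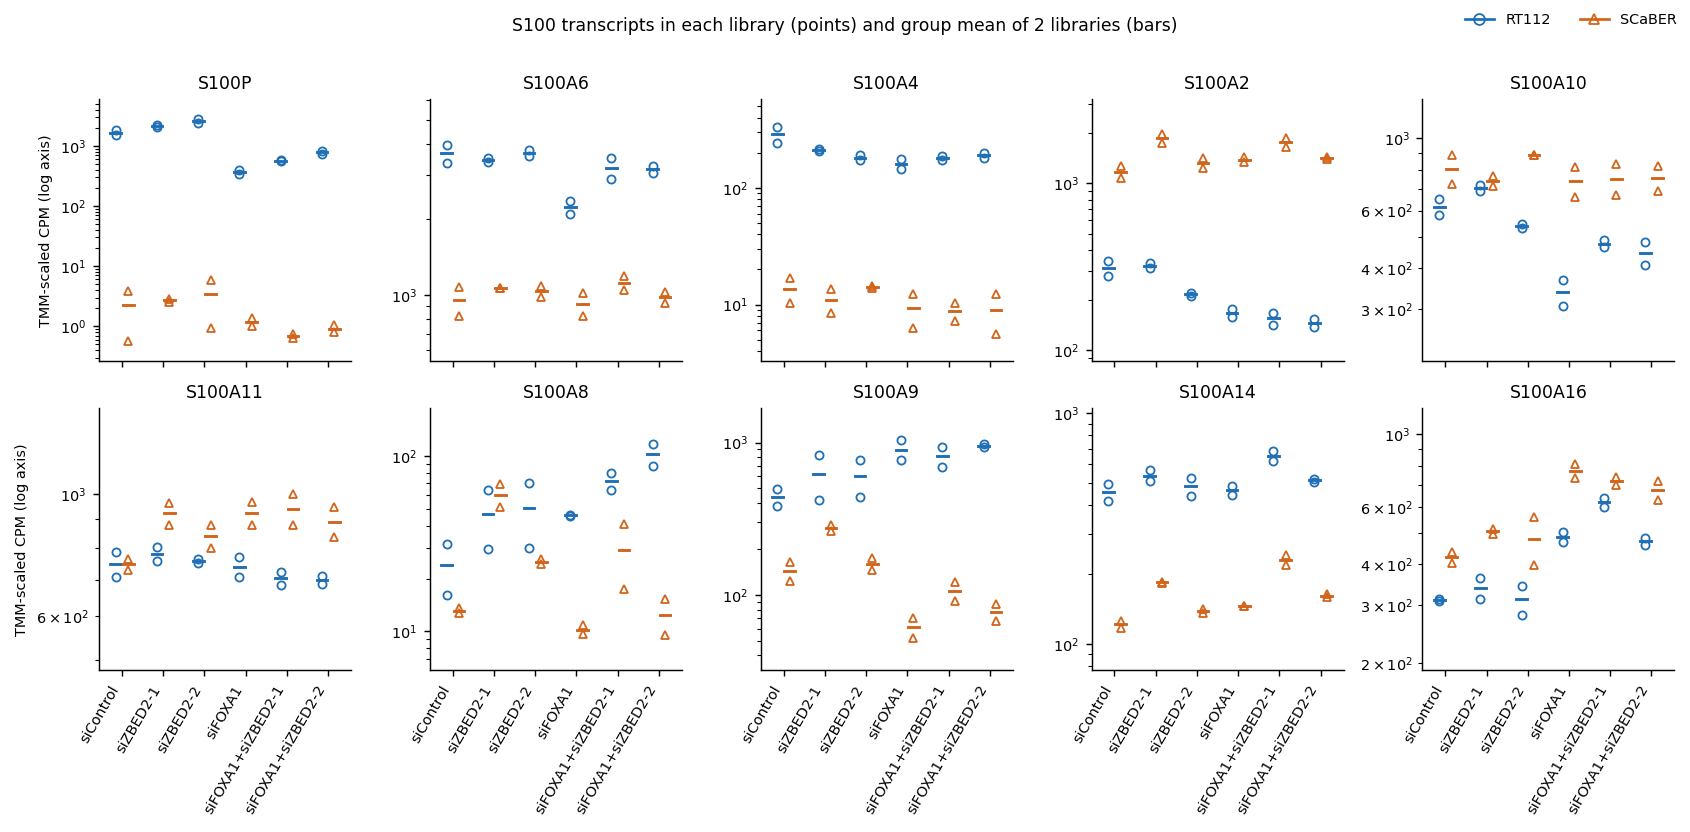
CPM (log axis) of each member in all 24 libraries by group, with circles for RT112, triangles for SCaBER and a bar at each group's mean. In RT112 S100P ran from 343 CPM under siFOXA1 to 2758 under siZBED2-2, and S100A11 ran from 684 to 802 over the 12 libraries.

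Over the 12 libraries of a line the highest value of a member was 1.17 times the lowest for S100A11 and 8.03 times for S100P in RT112, and 1.34 times for S100A10, 7.23 for S100A8 and 10.4 for S100P in SCaBER, the last over 3 to 32 counts.

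Of the other S100 genes fixed for comparison, 11 were in the table and 5 had any count. S100A13, a member involved in release of proteins without a signal peptide, was the only one at 10 CPM or more. It had 72.3 ± 0.051 CPM (SD, n = 2) under siControl and 124 ± 8.01 under siFOXA1 in SCaBER (0.75, SE 0.17, adjusted p = 0.00128), and 83.6 ± 7.25 and 116 ± 6.20 in RT112 (0.46, SE 0.17, adjusted p = 0.0569).

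S100 binding partners and receptors gave 3 higher and 1 lower of 16 tested under siFOXA1 in RT112, and 1 higher and 3 lower of 14 in SCaBER, with medians of −0.01 and −0.00 beside all-gene medians of −0.01 and −0.02. The shares of all genes called there, 23.3% in RT112 and 17.8% in SCaBER, are the background for this list and for the neighbour and marker lists that follow. In RT112 ANXA2, the annexin that pairs with S100A10, rose from 1214 to 1958 CPM (0.67, adjusted p = 0.000162) while S100A10 fell. ANXA1, an annexin that binds S100A11, rose from 105 to 218 (1.04, adjusted p = 5.93e-05), IQGAP1, a cytoskeletal scaffold, rose by 0.42 (adjusted p = 0.0277) and CACYBP, which binds S100A6, fell by 0.43 (adjusted p = 0.0476). In SCaBER ANXA11, an S100A6 partner, fell by 0.76 (adjusted p = 0.000108) and AHNAK, which binds the S100A10 and annexin A2 complex, fell by 0.64 (adjusted p = 0.0106), while PPFIBP1, a liprin that binds S100A4, rose by 0.50 (adjusted p = 0.0146). AGER had no count in these groups.

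Of 23 neighbours in the epidermal differentiation complex, 7 were tested in each line. In RT112 2 rose under siFOXA1, the cornified envelope gene SPRR3 (0.73, adjusted p = 0.00449) and TCHH, which codes for trichohyalin (2.01, adjusted p = 0.0354), with a median of 0.73, and in SCaBER 1 fell, SPRR2E, from 4.21 to 0.204 CPM (adjusted p = 0.0202), with a median of −0.61. The luminal markers gave 1 higher and 6 lower of 10 in RT112, with FGFR3 at −1.52 and GATA3 at −0.89 falling and ERBB2 at 0.57 rising, and 0 higher and 2 lower of 8 in SCaBER, KRT18 at −0.74 and ELF3 at −0.87. The basal markers gave 2 higher and 1 lower of 9 in RT112, EGFR at 1.01, CD44 at 0.61 and TP63 at −1.89, and 2 higher and 1 lower of 12 in SCaBER, KRT6B at 1.98, KRT17 at 1.48 and KRT5 at −0.46. COL1A1, in the fibroblast list, rose from 4.71 to 41.3 CPM in RT112 (adjusted p = 5.86e-07), and PECAM1, an endothelial gene of the same list, had 3.75 CPM under siControl and 0 under siFOXA1 (adjusted p = 0.0112). In SCaBER edgeR called 0 of the 1 gene of that list and 0 of the 2 myeloid markers that were tested.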

How the data were processed

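Raw counts and TPM per gene were deposited for 24 libraries (3′ mRNA-seq). Per the deposited settings and the submitters' processing notes, the authors trimmed reads with TrimGalore 0.6.2, aligned them to hg 38 with STAR 2.6.1a and counted them on GENCODE 29. The deposited TPM values, which the authors computed, were used only for levels per length and 1 alternative. Members and gene lists were chosen with earlier results of these data known.

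Counts were analysed with edgeR 4.0.16 (R 4.3.3): TMM scaling, genes kept by filterByExpr (minimum count 10, minimum total 15), the quasi-likelihood test with a mean per group, and Benjamini-Hochberg adjustment over all genes tested (13264 in RT112, 13129 in SCaBER, 14823 in both lines). Each line was fitted alone, and both together for comparisons of lines. DESeq2 1.42.0, limma 3.58.1 on log2(TPM + 1), other scalings, no filter, a replicate block and leaving out each library were alternatives. Replicate numbers pair libraries by label, since they name the experiment batch, although same-numbered libraries shared little deviation (mean r of 0.0449 in RT112 and 0.0399 in SCaBER, 0 of 15 pairs of groups over 0.1 in each). Replicates differed beyond counting noise (chi-square per gene of 6.07 to 22.1). The highest value was that of RT112 siZBED2-2, and the next was 10.9 in RT112 siControl. Scripts were tested on simulated data. Named genes were all 10 members, the siRNA targets and other S100 genes of at least 10 CPM. Of each list under siFOXA1, names were drawn from the up to 4 called genes per line and direction with the smallest p. Not every such gene is named. Promoter sequences came from RefSeq (GRCh38.p14). The values of 1 listed gene are not reported here.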

Additional observations from a re-analysis of the deposited data

Results flagged for a closer look

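For 4 members the change under siFOXA1 differed between the lines by a direct test of the difference, against 2.58% of 14823 genes. The test was the edgeR quasi-likelihood test on all 24 libraries, Benjamini-Hochberg adjusted, RT112 minus SCaBER on the log2 scale. S100A9 differed by 2.26 (adjusted p = 0.000122), higher in both RT112 siFOXA1 libraries and lower in both SCaBER ones. S100A2 differed by −1.13 (adjusted p = 0.000178), S100A10 by −0.74 (adjusted p = 0.0251) and S100A6 by −0.67 (adjusted p = 0.0316), each with a fall in RT112 and no called change in SCaBER in the fit without the block. With the replicate block S100A2 was called higher in SCaBER (0.23, adjusted p = 0.0496). The S100A10 and S100A6 differences were each no longer called on leaving out any 1 of several libraries, as given above. On log2(TPM + 1) values by limma 2 members were called.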

How the results depend on the processing

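Of 2297 recomputed member values, 2165 kept their side of the threshold, 77 lost a call, 55 gained one and 0 called values reversed, while 133 uncalled values changed sign. Counts of called members that moved by over 1.5 times follow, with the count as reported first. With library size alone, siZBED2-1 in RT112 went from 1 to 0 and siFOXA1+siZBED2-1 in RT112 from 4 to 2. Without the filter on low counts, RT112 siZBED2-1 and siZBED2-2 went from 1 to 3 and the RT112 interaction from 0 to 2. With DESeq2, RT112 siZBED2-2 went from 1 to 3, siZBED2-1 against siZBED2-2 from 1 to 2 and the interaction from 0 to 3. With limma on log2(TPM + 1), RT112 siZBED2-1, siZBED2-2, their comparison, and both double knockdowns went to 0, and in SCaBER siZBED2-1 went from 4 to 2, the comparison of the siRNAs from 3 to 0, siFOXA1+siZBED2-1 from 3 to 1 and the difference between lines from 4 to 2. In the fits of the groups compared alone, RT112 siZBED2-2 went to 0, siFOXA1+siZBED2-1 to 2 and the difference between lines to 2. With the replicate block, RT112 siZBED2-1 went from 1 to 4, siZBED2-2 from 1 to 2, their comparison from 1 to 2, the interaction from 0 to 2, and SCaBER siFOXA1 from 2 to 4. The block also added S100A8 under siFOXA1 and under siFOXA1+siZBED2-2 in RT112 and S100A2 under siFOXA1+siZBED2-1 in SCaBER, and changed no other call. With 1 library left out, the counts ran from 0 to 2 for RT112 siZBED2-1 and siZBED2-2, 0 to 0 for their comparison, 0 to 3 for RT112 siFOXA1+siZBED2-1, 1 to 2 for RT112 siFOXA1+siZBED2-2, 0 to 2 for the interaction, 1 to 2 for the SCaBER comparison of the siRNAs, 0 to 3 for SCaBER siFOXA1+siZBED2-1, and 2 to 5 for the difference between lines. A group left with 1 library was assumed to vary like the others. The cause was not tested in any case. The interaction in the groups compared alone was not run, since it uses every group of a line and is then the same fit. TPM scaling turned the split of all called genes in RT112 from 2219 higher and 2260 lower to 715 and 3260 for all libraries with the FOXA1 siRNA against those without it, and in SCaBER from 1144 and 1197 to 582 and 1283 for siFOXA1. In SCaBER S100P and FOXA1 were limited by their low counts.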

Other observations

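S100A7, or psoriasin, an antimicrobial S100 protein of inflamed squamous epithelium, was not among the members and was chosen after its values were seen. In SCaBER it had 16 and 7 counts under siControl, 8 and 29 under siZBED2-1 and 34 and 28 under siZBED2-2, against 3 and 2 under siFOXA1, 3 and 0 under siFOXA1+siZBED2-1 and 1 and 1 under siFOXA1+siZBED2-2. The 6 libraries with the FOXA1 siRNA did not overlap the 6 without it, against 6.76% of all genes. The edgeR quasi-likelihood test called the gene lower (adjusted p = 0.00152), against 12.0% of all genes. Since these values led to the choice of the gene, they describe it and are no independent test. No fold is given because all 6 treated libraries lie at or under 3 counts. In RT112 S100A7 had 13 and 8 counts under siZBED2-1, 13 and 0 under siFOXA1+siZBED2-1 and 2 and 0 under siFOXA1+siZBED2-2, and no count under siControl, siZBED2-2 or siFOXA1.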
